A study of Rattus norvegicus with 6 samples.

Results

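The receptor system for calcitonin gene-related peptide (CGRP) and adrenomedullin was examined in 2 types of mural cells of the rat cortex, vascular smooth muscle cells (VSMCs) of parenchymal arterioles and mid-capillary pericytes (mcPCs). Its members were taken by gene symbol and comprise the receptor gene Calcrl, the accessory protein genes Ramp1, Ramp2 and Ramp3, the ligand gene Adm, and Crcp. Of these 6 genes, 5 have a row among the 14607 genes of the deposited table, and Ramp3 has none. Cells came from the cortices of untreated male Sprague-Dawley rats, an outbred stock, aged 4 to 5 weeks, and several rats were pooled in each isolation. Polyadenylated RNA from 3 samples of VSMCs and 3 samples of mcPCs was sequenced. VSMCs were recovered from arterioles kept back by a fine mesh, by a positive sort with a Griffonia simplicifolia lectin after removal of cells carrying CD31 or CD11b. mcPCs were the cells of the filtrate left after removal of cells carrying CD31, CD11b, GLAST or O4, so that no surface marker of their own selected them.

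For each gene the table gives 1 mean per cell type, computed by the authors, and no value per sample. The authors' own comparison in the same table was not used here, so the spread between isolations is not given, no test was run, and each difference below is a description of these means. Intervals are 95% intervals for counting error only. The estimated counts sum to a mean of 62.0 M reads per sample of VSMCs and a mean of 48.0 M per sample of mcPCs.

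CGRP is released by perivascular nerves and is among the strongest known dilators of cerebral arteries, and adrenomedullin is a related peptide made by many cells of the vessel wall. Both act through the calcitonin receptor-like receptor, the product of Calcrl, which reaches the cell surface only together with a receptor activity modifying protein (RAMP). With RAMP1 it forms the CGRP receptor, and with RAMP2 or RAMP3 it forms adrenomedullin receptors. The complex couples mainly to Gs and cyclic AMP, and cyclic AMP relaxes smooth muscle. Adrenomedullin acting through RAMP2 is best known in endothelial cells. Crcp encodes an intracellular protein that helps couple the receptor to its signal and is also a subunit of RNA polymerase III.

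The regulatory sequence in front of the receptor gene, of the RAMP gene that was higher in VSMCs and of the ligand gene is shown first, because these genes were placed differently between the cell types. Upstream sequences taken from RefSeq's GRCr8 annotation were at hand for 5 of the 6 members, all but Ramp2. Each sequence below is the 250 bases upstream of the annotated start, 5′ to 3′ on the gene's strand, for Calcrl (chr3:89932617-89932866, minus strand), Ramp1 (chr9:99212866-99213115, plus strand) and Adm (chr1:174179950-174180199, plus strand). The expression values rest on Rnor_6.0 transcripts, not on this build. Capitals mark matches on either strand to TATAA, to ACGTG or GCGTG (cores of the hypoxia response element), to TGACG (the core of the cyclic AMP response element), to CCGCCC (the core of a GC box) or to the CArG box of smooth muscle genes. Matches can overlap, since TATAA and ACGTG each share letters with their own reverse complement, and the end of TGACG with the start of ACGTG. The CArG box is given by its name alone. Among the 3 sequences shown, only the TATAA matches of Adm overlap.
Calcrl: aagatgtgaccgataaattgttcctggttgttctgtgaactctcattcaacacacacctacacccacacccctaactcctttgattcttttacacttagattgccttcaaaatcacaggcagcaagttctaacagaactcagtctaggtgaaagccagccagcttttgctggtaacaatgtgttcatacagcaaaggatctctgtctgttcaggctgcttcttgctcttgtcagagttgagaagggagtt
Ramp1: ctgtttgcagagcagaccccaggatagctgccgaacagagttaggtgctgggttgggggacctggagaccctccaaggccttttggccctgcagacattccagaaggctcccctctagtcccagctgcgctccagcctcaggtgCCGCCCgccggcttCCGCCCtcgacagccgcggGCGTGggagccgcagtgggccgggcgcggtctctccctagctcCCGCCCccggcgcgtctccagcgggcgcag
Adm: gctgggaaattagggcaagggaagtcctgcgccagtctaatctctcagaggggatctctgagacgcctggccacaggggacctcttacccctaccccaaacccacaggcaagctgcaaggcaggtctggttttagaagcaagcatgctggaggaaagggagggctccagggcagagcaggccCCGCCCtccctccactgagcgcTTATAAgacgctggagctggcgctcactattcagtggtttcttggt
Calcrl had no match and a GC content of 43.6%. Ramp1 had 3 matches to CCGCCC, 1 to GCGTG and a GC content of 70.0%. Adm had 1 match to CCGCCC and overlapping matches to TATAA on the 2 strands, 45 and 46 bases before the start, with a GC content of 58.8%. Of the sequences not shown, that of Crcp had 2 matches to ACGTG, and that of Ramp3 had 1 to GCGTG and 2 to CCGCCC. Among 33469 promoter windows of the same length, 30.5% held CCGCCC, 25.9% GCGTG, 24.0% TATAA, 18.2% TGACG, 16.6% ACGTG and 1.5% a CArG box. A match is a string of letters and not a measured site.

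In VSMCs, Calcrl stood beside a high level of Ramp1 and little Ramp2, whereas in mcPCs Ramp2 was the more abundant RAMP transcript. Levels between genes are compared in TPM, Salmon's transcript abundance corrected for transcript length and scaled to the same total in every sample. Calcrl (ENSRNOG00000054695) reached 27.3 TPM, the authors' mean, in VSMCs (interval 26.8 to 27.9) and 14.1 TPM in mcPCs (13.8 to 14.3). Ramp1 (ENSRNOG00000019926) had 22.5 TPM in VSMCs (21.4 to 23.6) and 3.40 TPM in mcPCs (3.09 to 3.73). Ramp2 (ENSRNOG00000020415) had 1.58 TPM in VSMCs (1.29 to 1.92) and 8.89 TPM in mcPCs (8.37 to 9.43). Within each cell type, the intervals of Ramp1 and Ramp2 did not overlap. Crcp (ENSRNOG00000000901) had 50.4 TPM in VSMCs (48.9 to 52.0) and 13.0 TPM in mcPCs (12.4 to 13.5), and was the most abundant member in VSMCs. The ligand gene Adm (ENSRNOG00000027030) had 2.003 TPM in VSMCs (1.78 to 2.25) and 4.71 TPM in mcPCs (4.46 to 4.98).

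From the highest to the lowest TPM, the order in VSMCs was Crcp, Calcrl, Ramp1, Adm and Ramp2, and the counting intervals of Adm and Ramp2 overlapped. In mcPCs the order was Calcrl, Crcp, Ramp2, Adm and Ramp1, with no overlap between neighbours. Calcrl was above 67.4% of the listed genes in VSMCs and 82.2% in mcPCs. Ramp1 was above 63.0% of genes in VSMCs and 48.5% in mcPCs, and Ramp2 above 21.8% and 73.0%. Adm was above 24.0% of genes in VSMCs and 57.0% in mcPCs, and Crcp above 80.2% and 80.7%. Relative to the other genes of the same cells, Crcp thus had nearly the same place in both, Ramp1 a lower place in mcPCs, and Calcrl, Adm and Ramp2 a higher place in mcPCs.

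**Figure D1:**
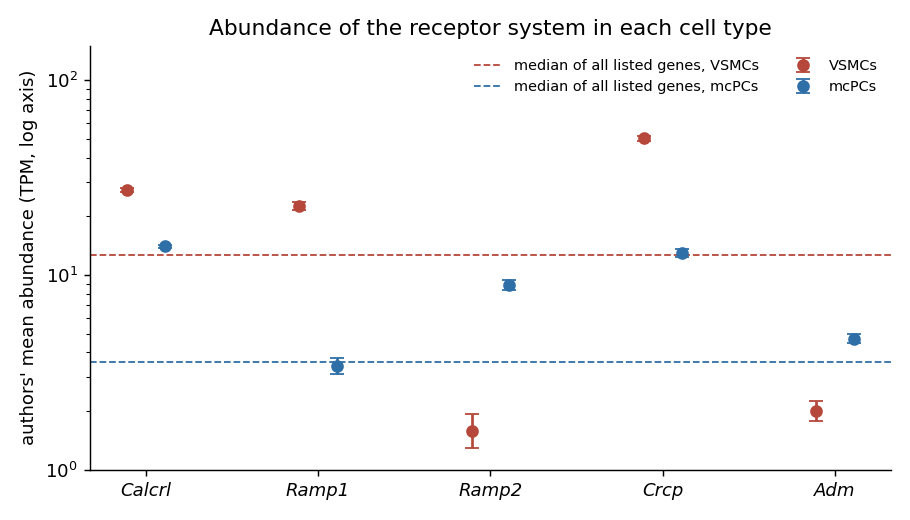
Authors' mean abundance in TPM (log axis) of Calcrl, Ramp1, Ramp2, Crcp and Adm in VSMCs and mcPCs, with bars for the 95% counting interval and dashed lines at the median of all listed genes, 12.7 TPM in VSMCs against 3.59 TPM in mcPCs. Calcrl and Crcp lie above the median in both cell types, Ramp1 above it in VSMCs only, and Ramp2 and Adm above it in mcPCs only, while the interval of Ramp1 in mcPCs spans the median.

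The makeup of the RAMP transcripts does not depend on how the cell types are scaled to each other. Ramp1 made up 93.4% of the summed TPM of Ramp1 and Ramp2 in VSMCs (interval 92.1 to 94.6) and 27.6% in mcPCs (25.4 to 29.9). Ramp2 accordingly made up 6.57% in VSMCs (5.40 to 7.92) and 72.4% in mcPCs (70.1 to 74.6). The more abundant RAMP transcript thus differed between the cell types, that of the CGRP receptor in VSMCs and that of an adrenomedullin receptor in mcPCs. In mcPCs both RAMP transcripts were below the endothelial gene Cldn5, at 15.4 TPM, which is taken up below. The ratio of Ramp2 to Ramp1 TPM was 0.0704 in VSMCs and 2.62 in mcPCs, a 37.2-fold difference. Per unit of Calcrl TPM, there were 0.823 TPM of Ramp1 in VSMCs and 0.242 in mcPCs, a 3.41-fold difference. Ramp2 was at 0.0579 per unit of Calcrl in VSMCs and 0.632 in mcPCs, 10.9-fold higher in mcPCs. The sum of Ramp1 and Ramp2 beside the receptor transcript was nearly the same in both, at 0.881 per unit of Calcrl in VSMCs and 0.874 in mcPCs. Ramp3, which has no row, is not in this sum. Transcript ratios of a bulk sample say nothing of which cells hold both transcripts or of the proteins.

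**Figure D2:**
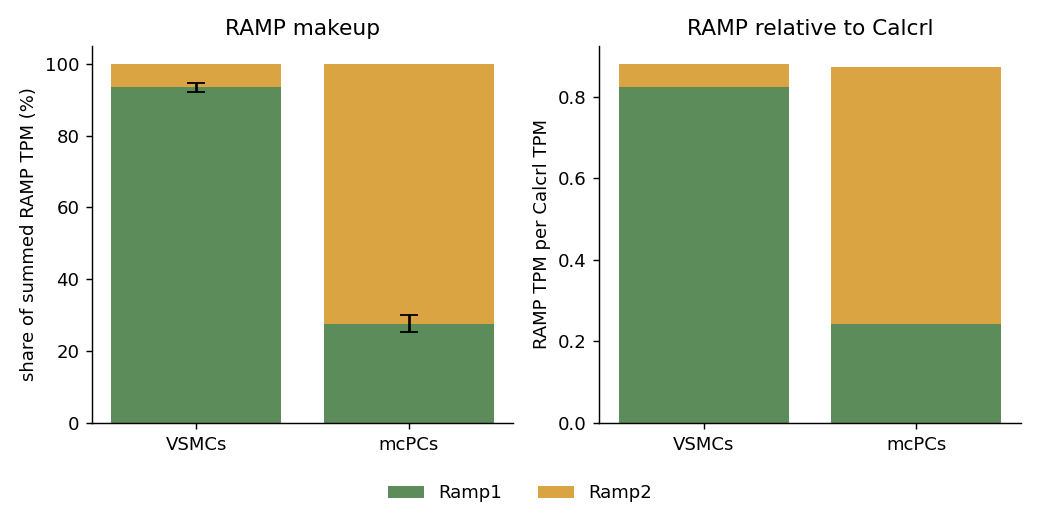
Left, share (%) of Ramp1 and Ramp2 in their summed TPM in VSMCs and mcPCs, with bars for the 95% counting interval of the Ramp1 share. Right, TPM of Ramp1 and Ramp2 per TPM of Calcrl, stacked. The Ramp1 share is 93.4% in VSMCs and 27.6% in mcPCs, while the stacked sum per Calcrl is 0.881 and 0.874.

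Other pairs can be read in the same way. Adm was at 0.0733 TPM per TPM of Calcrl in VSMCs and 0.335 in mcPCs, 4.58-fold higher in mcPCs. Crcp was at 1.84 per unit of Calcrl in VSMCs and 0.922 in mcPCs. The mean effective length of Calcrl transcripts was 2977 bases in VSMCs and 3434 bases in mcPCs, a difference of 15.4%, and that of Crcp was 678 and 728 bases. For Ramp1 and Adm the length was the same in both cell types, 601 and 1180 bases. Salmon weights these lengths by the estimated mix of transcripts of a gene, and the values of single transcripts were not analysed here.

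Between the cell types, mean counts normalized by the authors with DESeq2 were compared as a log2 ratio of mcPCs over VSMCs, with 1 added to each mean. Ramp2 had 25.1 normalized counts in VSMCs and 478 in mcPCs, a log2 ratio of 4.20 (interval 3.90 to 4.50) or 18.3-fold. The value in VSMCs rested on a mean of 34 reads per sample. Adm had 67.8 and 560 normalized counts, a log2 ratio of 3.03 (2.84 to 3.22) or 8.14-fold. Both genes were higher in mcPCs under each of the 7 scalings tried, with log2 ratios between 2.42 and 4.31 for Ramp2 and between 1.19 and 3.06 for Adm, the lowest on the ratio of mean TPM.

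Ramp1 had 391.7 normalized counts in VSMCs and 205 in mcPCs, a log2 ratio of -0.93 (-1.08 to -0.78), so that it was 1.90-fold higher in VSMCs. Calcrl had 2539 and 4603 normalized counts, a log2 ratio of 0.86 (0.82 to 0.90) or 1.81-fold higher in mcPCs, but the ratio of mean TPM gave -0.95. Crcp had 1050 and 883 normalized counts, a log2 ratio of -0.25 (-0.33 to -0.17). For Ramp1 and Crcp every scaling tried gave a negative log2 ratio, between -2.69 and -0.90 for Ramp1 and between -1.95 and -0.08 for Crcp.

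Of the 5 members with a row, 2 were at least 2-fold higher in mcPCs on this scale, Ramp2 and Adm, and 0 were at least 2-fold higher in VSMCs. Over the whole table of 14607 genes, the share past the same limit was 21.6% for mcPCs and 13.8% for VSMCs. The median log2 ratio of the 14607 genes was 0.01 on normalized counts and -1.72 on the ratio of mean TPM, and the share of genes above 0 was 50.7% on the former and 13.7% on the latter. Genes of the erythrocyte list held 54.4% of the mean TPM of mcPCs and 0.730% of that of VSMCs. With that list left out of the TPM total, the median log2 ratio of all genes was -0.65 and that of Calcrl 0.16.

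**Figure D3:**
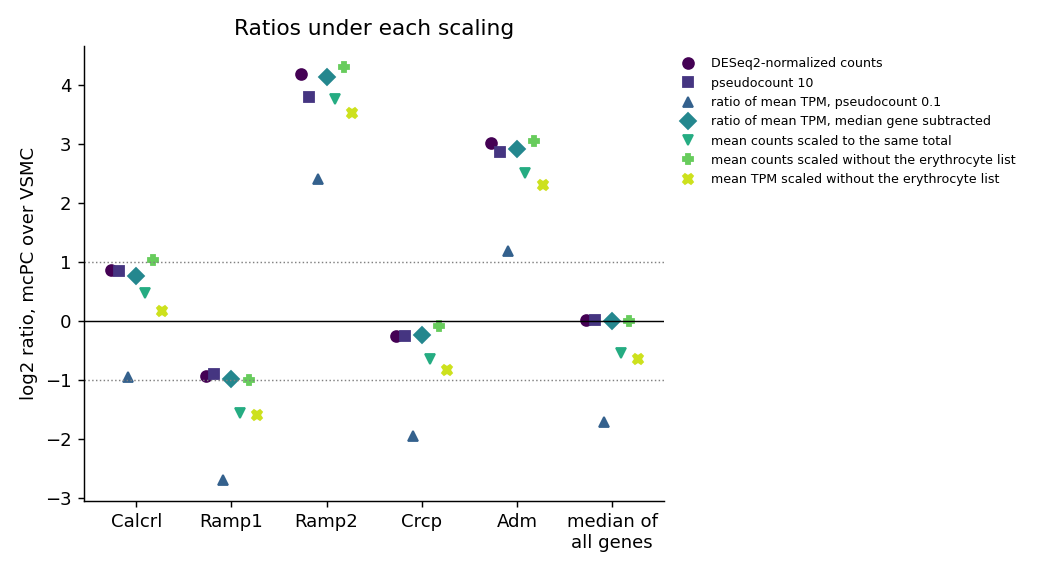
log2 ratio of mcPCs over VSMCs for each member and for the median of all genes under 7 scalings (symbols), with dotted lines at 2-fold. Ramp2 and Adm lie above 1 under each scaling and Ramp1 and Crcp below 0, while Calcrl lies above 0 on 6 scalings and at -0.95 on the ratio of mean TPM.

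The cells were described by lists of marker genes, chosen with earlier results of these data known. The paper itself reports Kcnj8, Abcc9 and Ptn, of the pericyte list, as highly specific for mcPCs in these data. The lists are thus no independent check of identity. Under each of the 7 scalings, 7% of all 14607 genes were past 2-fold in mcPCs and 12% in VSMCs, which is the background for the counts under each scaling. Of 12 smooth muscle genes, 12 were at least 2-fold higher in VSMCs under each scaling, with a median log2 ratio of -7.90. Of 10 pericyte genes, 9 had a row and 8 were at least 2-fold higher in mcPCs under each scaling, with a median of 6.17. Tagln was the most abundant smooth muscle gene, with 19824 TPM in VSMCs against 22.7 TPM in mcPCs. The most abundant pericyte gene was Vtn in VSMCs, with 484 TPM, and Ptn in mcPCs, with 1642 TPM. On normalized counts, the markers of both labelled cell types with a row were thus on their own side. Ifitm1 of the pericyte list, named after its values were seen, had 182 TPM in VSMCs against 104 TPM in mcPCs. Its log2 ratio was 0.98 on normalized counts and -0.81 on the ratio of mean TPM. Of 6 genes shared by mural cells, 2 were at least 2-fold higher on normalized counts in each cell type, and Rgs5 was the most abundant, with 6298 TPM in VSMCs against 1703 TPM in mcPCs. Of 22 erythrocyte genes, 16 had a row and 15 were past 2-fold in mcPCs on normalized counts, with Hba-a1, a globin gene, at 3838 and 286193 TPM.

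Markers of endothelial cells, in which Calcrl and Ramp2 are known to be expressed, were also higher in mcPCs. Of 26 endothelial genes, 24 had a row, 21 exceeded 2-fold in favour of mcPCs on normalized counts, 18 of them under each scaling, and 0 were at least 2-fold higher in VSMCs. The median log2 ratio of the list was 4.04, beside 4.20 for Ramp2, and 11 of its genes had a higher ratio than Ramp2. Other lists had medians in the same range, 4.18 for neurons, 3.57 for astrocytes and 5.15 for microglia and macrophages. Cldn5, a tight junction gene, had 0.643 TPM in VSMCs against 15.4 TPM in mcPCs. Tie1 had 0.546 and 2.76 TPM and Tek, the receptor for angiopoietins, 0.140 and 1.39 TPM. Pecam1, which encodes the CD31 used to remove endothelial cells, and Robo4 have no row. The list summed to 550 TPM in VSMCs against 333 TPM in mcPCs, but Esam, an adhesion molecule, held 487 and 184 TPM of these sums.

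In mcPCs, Ramp2 was above 19 of the 24 endothelial genes in TPM and stood at 0.576 TPM per TPM of Cldn5 (interval 0.538 to 0.615). In VSMCs the ratio was 2.46 (1.84 to 3.29), on 102 reads of Ramp2 over all samples. Calcrl was at 0.911 TPM per TPM of Cldn5 in mcPCs and 42.5 in VSMCs, and Adm at 0.305 and 3.11. In a bulk sample, fewer cells of a type and less RNA per cell cannot be told apart. The paper reports a slight contamination of mcPCs by endothelial cells. To obtain the transcriptome specific to mcPCs, it advises a threshold set by highly expressed endothelial genes such as Cldn5. In mcPCs every member with a row was below Cldn5, at 15.4 TPM, the highest being Calcrl at 14.1 TPM. The part of endothelial transcripts in the levels of the members in mcPCs was not tested.

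Markers of macrophages and blood leukocytes were also higher in mcPCs. Of 15 genes of microglia and macrophages, 6 had a row and 6 of these were past 2-fold in mcPCs on normalized counts. They summed to 0.893 TPM in VSMCs against 12.4 TPM in mcPCs, led in mcPCs by Csf1r with 3.94 TPM and in VSMCs by Cd68 with 0.210 TPM. Aif1, Itgam, which encodes CD11b, and P2ry12 have no row. Of 9 fibroblast genes, 8 had a row and 6 were past 2-fold in mcPCs on normalized counts, and the 8 genes summed to 443 TPM in VSMCs, where Col3a1 led with 299.7 TPM, and 248 TPM in mcPCs, where Slc6a13 led with 132 TPM. Col3a1 itself was not among the 6. Of 13 genes of other blood leukocytes only 3 had a row, summing to 1.58 and 154 TPM, with Lyz2 the most abundant in both (0.768 and 131 TPM).

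Neural and glial markers were also mostly higher in mcPCs on normalized counts. At least 2-fold higher there were 5 of 5 neuronal genes with a row, 5 of 6 astrocyte genes and 6 of 7 oligodendrocyte genes, the last with a median log2 ratio of 1.73. Of 11 astrocyte genes 6 had a row, summing to 14.6 TPM in VSMCs, led by Aldoc with 13.6 TPM, and 22.5 TPM in mcPCs, led by Slc1a3 with 12.7 TPM. Of 12 neuronal genes 5 had a row, summing to 3.37 TPM in VSMCs, led by Gad1 with 2.55 TPM, and 22.9 TPM in mcPCs, led by Tubb3 with 15.7 TPM. Of 9 oligodendrocyte genes 7 had a row, summing to 19.8 and 20.7 TPM, with Cnp the most abundant in both (13.1 and 12.4 TPM). Slc1a3, at 0.306 TPM in VSMCs, encodes the GLAST by which astrocytes were removed from the mcPC fraction, as cells carrying O4 were. In mcPCs Tubb3 was thus above Calcrl, at 14.1 TPM, and Slc1a3 and Cnp were just below it. The part of these cells in the values of the receptor system was not tested.

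**Figure D4:**
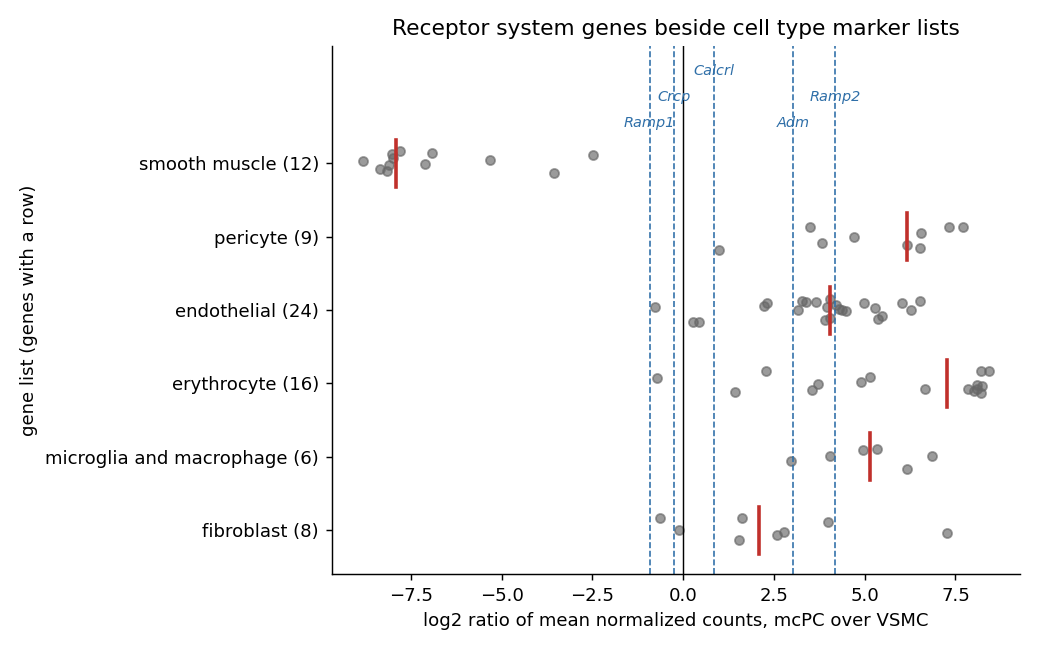
log2 ratio of mean normalized counts (mcPCs over VSMCs) of each gene with a row in 6 lists of marker genes (points) with the list's median (red line), and dashed lines at the members of the receptor system. Ramp2 at 4.20 lies within the endothelial, pericyte and macrophage points, and Ramp1 and Crcp lie below 0, above all smooth muscle points. On the ratio of mean TPM Calcrl would lie at -0.95.

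Among the ligands, Adm alone has a row. Calca and Calcb, which encode the forms of CGRP, Adm2, which encodes intermedin, and Iapp, which encodes amylin, have none, and neither has the calcitonin receptor gene Calcr. Only genes detected by 1 read or more in every sample were kept by the authors, so a gene without a row is not shown to be absent from either cell type.

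Further receptors were compared beside the members. Ackr3, an atypical chemokine receptor that takes up adrenomedullin without signalling through G proteins, had 326 TPM in VSMCs against 40.7 TPM in mcPCs, with a log2 ratio of -1.16 on normalized counts and between -2.998 and -1.16 over all scalings. It was at 11.9 TPM per TPM of Calcrl in VSMCs and 2.90 in mcPCs. Gpr182, an atypical chemokine receptor once proposed for adrenomedullin, had 1.42 and 0.762 TPM, with a log2 ratio of 0.87 on normalized counts and -0.82 on the ratio of mean TPM. Relative to Cldn5, Gpr182 was at 2.21 in VSMCs and 0.0493 in mcPCs. Among the 8 genes of receptors and accessory proteins, 6 have a row, of which 1, Ramp2, was at least 2-fold higher in mcPCs and 1, Ackr3, at least 2-fold higher in VSMCs under each scaling.

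RAMPs also bind several other class B peptide receptors. Of 13 such genes, 9 had a row, of which 4 were at least 2-fold higher in mcPCs and 4 in VSMCs on normalized counts, against 21.6% and 13.8% of all genes. Under each scaling the counts were 2 and 3, against 7% and 12% of all genes. Pth1r, the parathyroid hormone receptor and a known partner of RAMP2, had 56.7 TPM in VSMCs against 229 TPM in mcPCs, with a log2 ratio of 3.85 and at least 2.01 under each scaling. Crhr2, the urocortin receptor, had 90.9 and 1.07 TPM (log2 ratio -4.48), Vipr2, a receptor for VIP and PACAP, 6.67 and 0.209 TPM (-3.24), and Gcgr, the glucagon receptor, 6.22 and 0.0490 TPM (-4.89). The value of Gcgr in mcPCs rested on 17 reads over all samples. The 4 genes higher in mcPCs also included Adcyap1r1, named after its values were seen. Adcyap1r1 had 0.443 TPM in VSMCs against 2.18 TPM in mcPCs, with a log2 ratio of 4.08 and at least 2.07 under each scaling. The rest were near the floor, Vipr1 and Gipr at 0.374 and 0.221 TPM in mcPCs. Among the 4 genes higher in VSMCs, Glp2r had only 0.293 TPM there. Vipr1, Gipr and Glp2r were also named after their values were seen. Apart from Pth1r, no receptor of this list exceeded Calcrl or Ramp2 in TPM in mcPCs, whereas in VSMCs both Crhr2 and Pth1r exceeded Calcrl.

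Transcripts of enzymes that mature or break down these peptides were compared next. Pam, which amidates CGRP and adrenomedullin to their active forms, had 148 TPM in VSMCs against 75.0 TPM in mcPCs, with a log2 ratio of 0.85 on normalized counts and -0.98 on the ratio of mean TPM. Furin, a proprotein convertase, had 81.4 and 33.4 TPM (0.54 and -1.28 on the same scales). Ece1, an endopeptidase that cleaves CGRP in endosomes, had 186 and 50.8 TPM, a log2 ratio of -0.04 on normalized counts. Ide, insulin-degrading enzyme, had 24.6 and 3.18 TPM (-1.15). Of the 12 genes listed, 10 had a row, of which 3 were at least 2-fold higher in mcPCs, 0 of them under each scaling, and 1, Ide, in VSMCs under each scaling. On normalized counts, 21.6% of all genes were past the same limit in mcPCs and 13.8% in VSMCs.

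Of 13 genes of receptor desensitisation and trafficking, 13 had a row, and 9 differed by less than 2-fold on normalized counts, as did 64.6% of all genes. Slc9a3r1, which encodes the scaffold NHERF1, had 43.2 TPM in VSMCs against 62.2 TPM in mcPCs (log2 ratio 2.35, and 0.52 on the ratio of mean TPM). Arrb2, a beta-arrestin, had 8.57 and 10.9 TPM (2.12, and 0.34 on the ratio of mean TPM). Adrbk1, the kinase GRK2, had 40.4 and 17.9 TPM, with 0.61 on normalized counts and -1.17 on the ratio of mean TPM. Rab7a, a GTPase of late endosomes, had 303 and 54.0 TPM (-0.67).

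The Gs and cyclic AMP genes spread widely in both directions. Of 24 genes, 23 had a row, of which 9 were at least 2-fold higher in VSMCs and 5 in mcPCs on normalized counts. Of all genes, 13.8% and 21.6% were past the same limit, so the count in mcPCs was near the share of all genes. Under each scaling the counts were 9 and 3, against 12% and 7% of all genes. Gnas, the Gs alpha subunit, has 2 rows, and the one with more counts had 860 TPM in VSMCs against 257 TPM in mcPCs, with a log2 ratio of 0.10 on normalized counts and -1.74 on the ratio of mean TPM. Prkar1a, a regulatory subunit of protein kinase A, had 1005 and 90.8 TPM (-1.65). Of the adenylyl cyclases, which make cyclic AMP, 4 are named here after their values were seen. Adcy3 had 279 and 1.71 TPM (-5.56), Adcy5 229 and 2.94 TPM (-4.46) and Adcy6 216 and 42.2 TPM (-0.54), whereas Adcy7 had 0.150 and 3.08 TPM (6.03). In mcPCs Adcy6 thus had the highest TPM of these 4 cyclases, and in VSMCs Adcy3, Adcy5 and Adcy6 lay close together.

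ATP-sensitive potassium channels, which protein kinase A opens in smooth muscle after CGRP, differed in the makeup of their subunit transcripts. Kcnj8 had 17.2 TPM in VSMCs against 346 TPM in mcPCs (log2 ratio 6.17) and Abcc9 12.4 and 320.4 TPM (6.52), while Kcnj11 had 34.4 and 0.0975 TPM (-6.55) and its partner Abcc8, named after its values were seen, 23.8 and 0.374 TPM (-4.22). VSMCs thus held transcripts of all 4 subunits, and mcPCs mainly those of Kcnj8 and Abcc9. Kcnj8 and Abcc9 also stand in the pericyte list.

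Adm is a well-known hypoxia-induced gene, so others of that kind were set beside it. Of 20 hypoxia-induced genes, 19 had a row, with a median log2 ratio of 0.04 against 3.03 for Adm, and 14 differed by less than 2-fold on normalized counts, beside 64.6% of all genes. None of the 19 had a log2 ratio as high as Adm, the highest being 2.49 for Egln3, with 0.500 TPM in VSMCs against 0.819 TPM in mcPCs. At least 2-fold higher on normalized counts were 2 genes in mcPCs and 3 in VSMCs, against 21.6% and 13.8% of all genes. The 2 were Egln3 and Vegfa (1.47, and -0.32 on the ratio of mean TPM), both named after their values were seen. The part of hypoxia in the Adm level was not tested. Aldoa had 931 TPM in VSMCs against 281 TPM in mcPCs (0.09 on normalized counts, -1.73 on the ratio of mean TPM), Eno1 335 and 98.1 TPM (0.04 and -1.77) and Ldha 271 and 57.1 TPM (-0.44). Hk2 had 41.9 and 1.31 TPM (-3.22) and Car9 2.46 and 0.108 TPM (-2.72). The factors themselves were lower in mcPCs under each scaling, with 1277 and 140.1 TPM for Epas1 (-1.36), 68.1 and 11.8 TPM for Hif1a (-0.73), 47.7 and 9.34 TPM for Arnt (-0.55) and 9.11 and 0.141 TPM for Hif3a (-4.20).

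**Figure D5:**
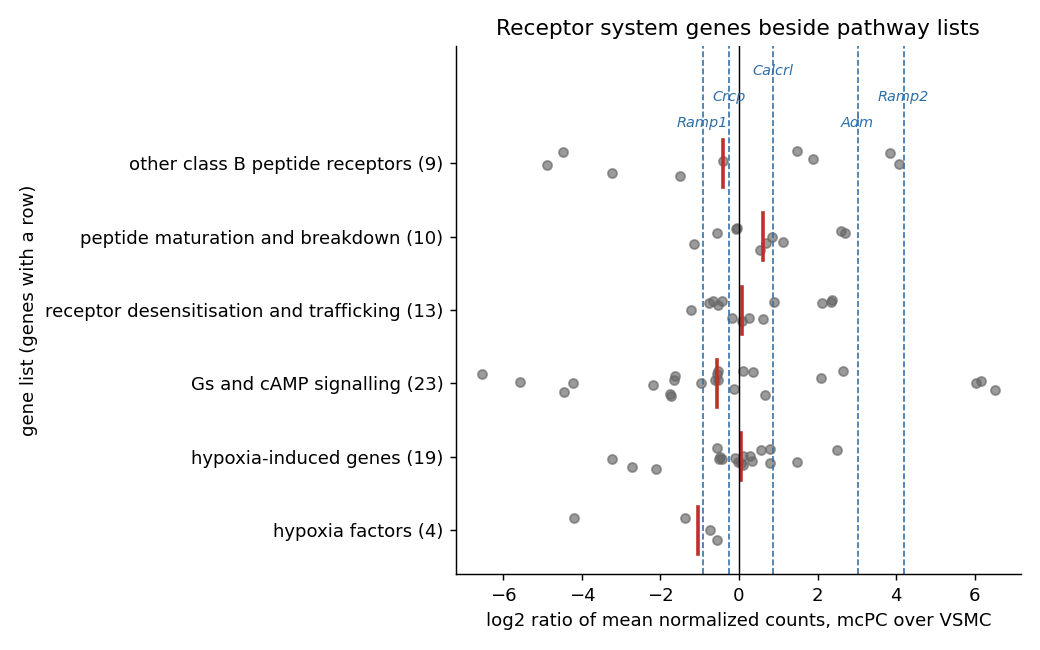
log2 ratio of mean normalized counts (mcPCs over VSMCs) of each gene with a row in 6 pathway lists (points) with the list's median (red line), and dashed lines at the members of the receptor system. Adm at 3.03 lies above all points of the hypoxia-induced list, whose median is 0.04, and the Gs and cyclic AMP list spreads from -6.55 to 6.52. On the ratio of mean TPM Calcrl would lie at -0.95 and the median of all genes at -1.72.

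Genes with the most similar pair of values were found by the distance over log2(TPM + 0.1) in the 2 cell types, which is a likeness over 2 values only. Nearest to Ramp2 were Lat, Abhd8 and Slc15a3, at distances of 0.10, 0.15 and 0.18, and 0 genes lay within 0.1 of it. Nearest to Adm were Abcc6, RGD1309808 and Mob3c, with 1 gene within 0.1. Nearest to Calcrl were Necap2, LOC103691995 and Minpp1, with 9 genes within 0.1, and nearest to Ramp1 were RGD1359158, Mnt and Zfp62, with 20. Crcp had 31 genes within 0.1, the nearest being Flywch1, Gpbp1l1 and Prdx3. Ramp2 and Adm thus had few neighbours, and Crcp and Ramp1 shared their pair of values with many genes.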

How the data were processed

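RNA-Seq of 3 VSMC and 3 mcPC samples was processed by the authors. Reads were trimmed and filtered with Eoulsan, quantified with Salmon 0.8.0 against rat transcripts of Ensembl release 87 (Rnor_6.0), collapsed to genes with tximport, and normalized with DESeq2. The deposited TPM are the authors' means of each cell type. The deposited estimated counts were read as the authors' means per run. After multiplication by 12, the number of runs per cell type, 69.8% of the VSMC and 71.5% of the mcPC values lay within 0.01 of a whole number of reads. Means per sample would pass that check too, so it cannot decide between them. The reading rests on depth, since 4 times the deposited values sum to 62.0 M and 48.0 M reads per sample, of the order the paper gives. Mean reads per sample were taken as 4 times the deposited value. Normalized counts (signal) were deposited as means too, after division by the authors' DESeq2 factors, and effective lengths as means per gene. The table also holds the authors' comparison (log2 fold change, standard error, p-value, adjusted p-value), which was not used.

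As only means were at hand, no test between samples was run, the planned edgeR fit included, and all ratios are descriptions. log2 ratios used a pseudocount of 1 for normalized counts and 0.1 for TPM, without a filter on low values. The 7 scalings were normalized counts with a pseudocount of 1 or 10, the ratio of mean TPM with and without its median gene subtracted, counts scaled to the same total with and without an erythrocyte list, and TPM rescaled without that list. Intervals at 95% are exact Poisson intervals of the reads over all samples, or exact Clopper-Pearson intervals of the share of reads of a pair, moved to the scale of the value. They cover counting error only, since reads without molecular identifiers are not independent molecules.

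Members and lists were chosen with earlier results of these data known. Genes were matched by symbol (with several rows, the row with the most counts was taken), or else by the Entrez ID of the RefSeq gene with that synonym. Named are all members, all ligand and receptor genes, of other pathway lists the 3 most abundant genes and the 2 with the largest absolute log2 ratio at 1 TPM or more, of marker lists the most abundant gene of each cell type, of the endothelial list also Cldn5, Pecam1, Tie1 and Tek, and the 3 nearest genes of each member. The values of 1 gene that this rule names are not reported here. Other genes without a row, and those said to be, were named after their values were seen. Only the log2 ratios of the scalings were tried on simulated counts, after the median of each scaling was subtracted. Intervals, shares, pair ratios and the matching of genes and motifs were not tried in this way. Calculations used scipy 1.17.1, numpy 2.4.6 and pandas 2.3.3 under Python 3.11.15, and plots matplotlib 3.10.9.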

Additional observations from a re-analysis of the deposited data

How the results depend on the processing

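Of the 30 recalculated log2 ratios of the 5 members (6 alternatives each), 11 stayed within the counting interval of the reported value, 18 moved outside it with the same sign and 1 reversed. That 1 was Calcrl, at -0.95 on the ratio of mean TPM with a pseudocount of 0.1, a scale on which the median of all genes was also shifted by -1.73. The number of members at least 2-fold higher in VSMCs, 0 on normalized counts, was 2 on the ratio of mean TPM, where 72.3% of all genes were past the same limit. It was 1 on mean counts scaled to the same total (28.6% of all genes) and 1 on mean TPM scaled without the erythrocyte list (33.0% of all genes). The number at least 2-fold higher in mcPCs was 3 on counts scaled without the erythrocyte list (21.4% of all genes) and 2 on the other scalings, where between 7% and 22.4% of all genes were past the same limit. With genes of at least 0.8 TPM in VSMCs alone, the numbers on normalized counts were 2 in mcPCs and 0 in VSMCs, against 13.0% and 15.7% of the 12218 genes left. The share of Ramp1 in the sum of Ramp1 and Ramp2 was between 93.4% and 94.2% in VSMCs and between 27.0% and 28.5% in mcPCs, whether computed from TPM, from counts over length or from counts alone. No paired analysis was possible because the table holds means of each cell type, and for the same reason no sample was left out in turn and the planned count tests were not run. The spread between isolations was not used here, and the reads limit Ramp2 in VSMCs most, with 102 reads over all samples.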
